A study of Callithrix jacchus with 3 samples.

Results

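Genes of redox defence, glutathione metabolism and ferroptosis were read out in RNA sequencing of extended pluripotent stem cell-like (EPSC-like) cells of the common marmoset, Callithrix jacchus. A list of 52 genes was taken by symbol, and the genes were found in the count files through a table that pairs marmoset Ensembl gene IDs with symbols. Of the 52 genes, 36 had a matched ID among the 30811 genes counted, of which 23432 had at least 1 count in the 3 libraries. The other 16 were NQO1, GPX1, GPX2, GPX4, GPX7, GPX8, GSTM3, GSTP1, MGST1, TXN2, PRDX4, PRDX5, PRDX6, AIFM2, FTH1 and SELENOP, and they were not analysed here. The readout of the glutathione peroxidases therefore rests on GPX3 and that of ferritin on the light chain gene FTL.

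The study's title states that the cells came from attempts to turn marmoset embryonic stem cells into extended pluripotent stem cells, a state in which cells of other species can enter embryonic and extraembryonic lineages. The 3 libraries, replicates 1, 2 and 3, form 1 group, their titles share the code No40, whose meaning is not stated, and no genotype, sex, medium, treatment or passage is given for them in the labels. No parental or control cells were compared, so the question open to the data is whether these genes are expressed and how much they vary from library to library. Separate cultures are not stated in the labels, nor whether any of the libraries are repeats of 1 sample. A difference of replicate 3 from both others thus need not amount to 2 independent comparisons. The p-values of gene levels therefore reflect the scatter of these libraries alone, and that scatter may be technical. Those of differences between 2 libraries cover counting error only.

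Cells neutralise superoxide with superoxide dismutases, which yield hydrogen peroxide, and remove peroxide with catalase, peroxiredoxins and glutathione peroxidases. Peroxiredoxins draw electrons from thioredoxin, and glutathione peroxidases from glutathione, a tripeptide made from glutamate, cysteine and glycine. The transcription factor NRF2, which KEAP1 holds in check, switches on many of these genes. Ferroptosis is a death that follows iron-dependent peroxidation of membrane lipids, so genes of iron uptake, storage and lipid remodelling belong to the same picture.

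Total counts were 52327369, 55224475 and 40593244 in replicates 1, 2 and 3, and the limit that 0 counts allow (3 counts, counting error only) was 0.0573, 0.0546 and 0.0736 CPM (counts per 1000000 counts, scaled with TMM factors). Replicate 3 stood apart from the other two: of 13719 genes that averaged 1 CPM or more, 36.5% were lower and 27.3% higher in it than in both others (exact conditional binomial test on counts, Benjamini-Hochberg adjusted). All 6 measured markers of the core pluripotency list were above 1 CPM. Their sum was 4916 CPM in replicate 3, against 4958 and 5125 CPM in replicates 1 and 2. By the test, 3 of the 6 were higher in replicate 3 than in replicate 1, and LIN28A and SALL4 were lower (log2 difference of -0.94 and -1.20). Summed levels of markers of other cell types were also lower there. The 7 mesenchyme and fibroblast markers summed to 540.1 CPM in replicate 3 against 745 and 699 CPM in replicates 1 and 2. Of the 7, 6 were lower by the test against each, beside 39.7% and 40.3% of all genes. The 5 trophectoderm and amnion markers summed to 14.2 CPM against 33.6 and 34.1 CPM. The sum was 8.93 CPM against 17.2 and 17.98 CPM for the 4 endoderm markers. It was 67.4 CPM against 118 and 124 CPM for the 4 blood and endothelium markers, most of it PECAM1 (log2 level 6.655). CDH5 and PTPRC of that list were below 1 CPM (log2 level -3.484 and -4.675). The 3 neural markers summed to 3.83 CPM against 7.19 and 7.60 CPM. A sum over so few genes can follow 1 of them. GATA6 and MAP2, the highest endoderm and neural markers, had log2 levels of 2.411 and 2.121, and of 2.94 and 2.491 without replicate 3. Of 4 trophectoderm and amnion markers that averaged 1 CPM or more, 3 were lower than in replicate 1 by the test and 1 higher. On the same terms, 1 of 3 endoderm, 1 of 2 blood and endothelium and 1 of 2 neural markers were lower. Among all 13719 genes, 39.7% were lower and 30.9% higher than in replicate 1. AFP had no counts in any library, and CDX2 and PTPRC had none in replicate 3. The part of such markers in the differences of replicate 3 given here was not tested. In bulk RNA, fewer cells of a type and less RNA per cell cannot be told apart.

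Of the 36 genes, 35 were called above 1 CPM, none below, and SOD3 was not distinguished from that level (edgeR quasi-likelihood F statistic against 1 CPM, Benjamini-Hochberg adjusted over 23432 genes). For comparison, 56% of all genes tested were above 1 CPM by the same call, 37.8% were below, and of tested genes with a symbol 78.3% were above. SOD3 had the lowest log2 level of the 36 genes, 0.316, so no choice of p threshold could have put a gene below 1 CPM. With DESeq2 the number below was 0 as well. The median log2 level was 6.26 over the 36 genes and 1.70 over all genes tested. Together the 36 genes took 0.735% of all counts in replicate 3, against 0.698% and 0.694% in replicates 1 and 2. CPM does not correct for gene length, and no transcript lengths were at hand, so levels of different genes are not ranked against each other here.

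**Figure D1:**
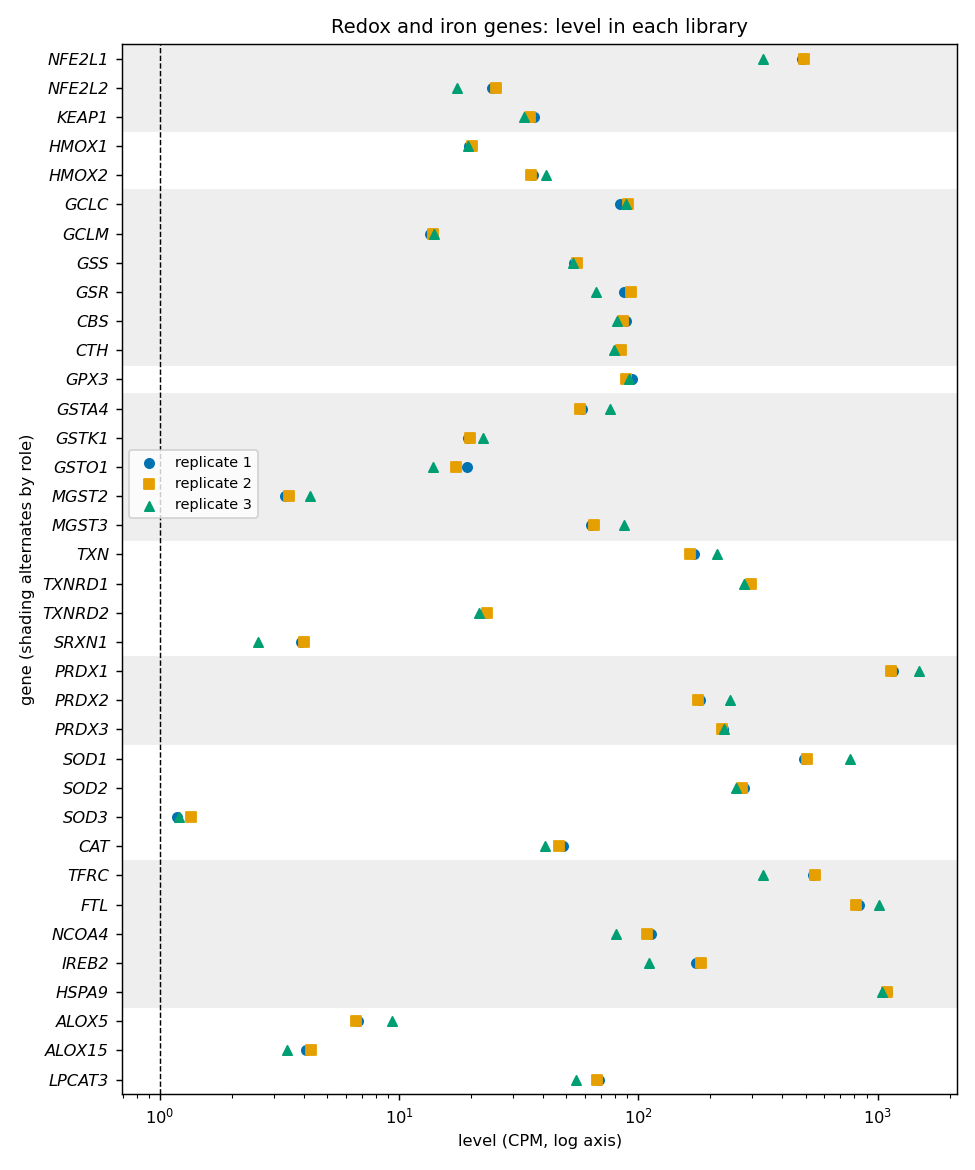
Level of each of the 36 genes in CPM (log axis) in the 3 libraries, with 1 symbol per library, shading that alternates between roles and a dashed line at 1 CPM. SOD3, at 1.19 to 1.35 CPM, lies next to the line, and the symbols of replicates 1 and 2 nearly coincide while that of replicate 3 is often displaced.

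The genes of the NRF2 switch were expressed, and all 3 were lowest in replicate 3, as were 50.7% of all 13719 genes. NFE2L2, which encodes NRF2, stood at 17.5 CPM in replicate 3, against 24.4 and 25.3 CPM in replicates 1 and 2. NFE2L1, which encodes the related factor NRF1, a regulator of proteasome genes, stood at 332 CPM in replicate 3 against 484 and 492 CPM. KEAP1, the adaptor that delivers NRF2 to ubiquitination, varied less, with 33.2 CPM in replicate 3 against 36.7 and 35.4 CPM. Both transcription factor genes were thus lower in replicate 3 by a similar factor, and KEAP1 by less. The log2 difference of replicate 3 to replicate 1 was -0.55 for NFE2L1 (95% interval -0.58 to -0.52, counting error only, as for all such intervals here) and -0.48 for NFE2L2 (-0.61 to -0.34). That of KEAP1 was -0.15 (-0.25 to -0.04) and passed against replicate 1 alone (adjusted p = 0.0112 and 0.138 against replicates 1 and 2, exact conditional binomial test). Within a library, the ratio of KEAP1 to NFE2L2 counts was 1.90 (1.73 to 2.08) in replicate 3 and 1.51 (1.40 to 1.62) and 1.40 (1.30 to 1.497) in replicates 1 and 2.

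The haem oxygenase genes, whose products split haem into biliverdin, carbon monoxide and iron, were both above 1 CPM. HMOX1, the stress-inducible form and a classical NRF2 target, stood at 19.7 ± 0.387 CPM (SD, n = 3). It differed between no pair of libraries. HMOX2, the constitutive form, stood at 41.2 CPM in replicate 3, against 36.4 and 35.6 CPM, a log2 difference of 0.18 to replicate 1 (0.08 to 0.27).

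Every listed gene of glutathione synthesis and recycling was above 1 CPM. Of the 6, 5 varied by less than 1.1-fold over the libraries, beside 16.3% of all 13719 genes. GCLC and GCLM encode the catalytic and the modifier subunit of glutamate-cysteine ligase, the rate-limiting enzyme, and GSS encodes the synthetase that adds glycine. GCLC stood at 87.5 ± 3.36 CPM, GCLM at 13.8 ± 0.239 CPM and GSS at 54.3 ± 1.12 CPM (SD, n = 3). GCLM and GSS differed between no pair of libraries, and the count ratio of GCLC to GCLM was 6.35 in replicate 3 and 6.21 and 6.52 in replicates 1 and 2, with overlapping intervals. The transsulfuration genes, which supply cysteine from homocysteine, were close in level over the libraries as well. CBS stood at 85.8 ± 3.56 CPM and CTH at 82.2 ± 2.71 CPM. Replicate 3 was lower than both others in CBS and than replicate 2 in CTH, by log2 differences of at most 0.12 in size. GSR, the reductase that regenerates glutathione with NADPH, was the exception, at 66.6 CPM in replicate 3 against 87.5 and 92.9 CPM. Its log2 difference was -0.39 to replicate 1 (-0.46 to -0.33) and -0.48 to replicate 2 (-0.55 to -0.41).

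GPX3, the secreted glutathione peroxidase, was expressed at 91.5 ± 2.47 CPM (SD, n = 3) and differed between no pair of libraries. The glutathione transferases, which join glutathione to reactive compounds, were all 5 above 1 CPM. Of the 5, 4 were highest in replicate 3, as were 41.6% of all genes. By the test, 3 of the 5 were higher there than in both others, beside 27.3% of all genes. GSTA4, whose product clears the lipid peroxidation product 4-hydroxynonenal, stood at 75.9 CPM in replicate 3 against 58.1 and 57.1 CPM. The membrane-bound MGST3 stood at 86.8 CPM against 63.4 and 65.3 CPM. Both were higher in replicate 3 by similar amounts, with log2 differences to replicate 1 of 0.39 (0.31 to 0.46) and 0.45 (0.38 to 0.52). GSTK1, of mitochondria and peroxisomes, was higher by less, at 22.4 CPM against 19.4 and 19.8 CPM. GSTO1, which acts on dehydroascorbate and other substrates, went the other way, at 13.8 CPM in replicate 3 against 19.2 and 17.3 CPM. MGST2, at 4.24 CPM against 3.35 and 3.46 CPM, did not differ between the libraries by the test (adjusted p = 0.063 and 0.109, exact conditional binomial test).

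In the thioredoxin system, the carrier was higher in replicate 3 and its reductases were not. TXN, the cytosolic thioredoxin, stood at 213 CPM in replicate 3 against 171 and 164 CPM in replicates 1 and 2, a log2 difference of 0.31 to replicate 1 (0.27 to 0.36). TXNRD1, the cytosolic reductase that recharges it, stood at 286 ± 9.90 CPM (SD, n = 3), and TXNRD2, the mitochondrial reductase, at 22.6 ± 0.873 CPM. TXNRD1 was lower in replicate 3 by log2 differences of -0.06 and -0.10 to replicates 1 and 2, and TXNRD2 differed between no pair. The count ratio of TXN to TXNRD1 was 0.772 there and 0.595 and 0.557 in replicates 1 and 2. SRXN1, the sulfiredoxin that repairs overoxidised peroxiredoxins and an NRF2 target, had 105 counts in replicate 3, against 204 and 221 counts. This is 2.58 CPM against 3.90 and 4.02 CPM, a log2 difference of -0.60 to replicate 1 (-0.95 to -0.25), with a wide interval from the low counts.

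The peroxiredoxin genes, which encode thiol peroxidases of great abundance, were all 3 above 1 CPM. Of them, 2 were higher in replicate 3 than in both others by the test, beside 27.3% of all genes. PRDX1 stood at 1497 CPM in replicate 3, against 1161 and 1138 CPM in replicates 1 and 2. PRDX2 stood at 242 CPM against 181 and 178 CPM. Both encode cytosolic enzymes, and their log2 differences to replicate 1 were 0.37 (0.35 to 0.38) and 0.42 (0.38 to 0.46). PRDX3, the mitochondrial enzyme, stood at 227 CPM in replicate 3 against 227 and 223 CPM, and differed between no pair of libraries. Its SD was 0.948% of the mean, the lowest of the 36 genes.

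Of the superoxide dismutases, SOD1 differed most between the libraries. SOD1, the cytosolic copper and zinc enzyme, stood at 764 CPM in replicate 3 against 491 and 506 CPM in replicates 1 and 2. SOD2, the mitochondrial manganese enzyme, stood at 257 CPM against 276 and 270.2 CPM. Replicate 3 was thus higher in the cytosolic enzyme and slightly lower in the mitochondrial one. The ratio of SOD1 to SOD2 counts, which needs no scaling between libraries, was 2.98 (2.91 to 3.05) in replicate 3 and 1.78 (1.74 to 1.82) and 1.87 (1.83 to 1.91) in replicates 1 and 2. Effects of transcript length or RNA quality on the count ratios given here, and on other differences between libraries, were not tested. CCS, which encodes the copper chaperone of SOD1 and was picked after its values were seen, stood at 6.13 CPM in replicate 3 against 4.15 and 4.76 CPM. By the test, 30.9% of all 13719 genes were higher in replicate 3 than in replicate 1. SOD3, the extracellular enzyme, had 49 counts in replicate 3 and 62 and 74 in replicates 1 and 2, and its 1.24 ± 0.088 CPM (SD, n = 3) was not distinguished from 1 CPM (adjusted p = 0.125, edgeR quasi-likelihood). CAT, the peroxisomal catalase, stood at 40.8 CPM in replicate 3 against 48.6 and 46.6 CPM, a log2 difference of -0.25 to replicate 1 (-0.34 to -0.16).

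Of the 5 measured iron genes, 2 varied by at least 1.5-fold over the libraries, beside 24.3% of all 13719 genes. Uptake, read from TFRC alone, and storage, read from FTL alone, differed in opposite directions. FTH1 was not analysed, and the level of FTL is uncertain, as for other genes with close copies or pseudogenes. TFRC, the transferrin receptor through which cells take up iron, stood at 333 CPM in replicate 3 against 536 and 547 CPM in replicates 1 and 2. IREB2, which encodes iron regulatory protein 2, a protein that stabilises TFRC mRNA and represses ferritin translation when iron is scarce, stood at 111 CPM against 175 and 183 CPM. FTL, the light chain of the iron store ferritin, stood at 1010 CPM in replicate 3 against 837 and 814 CPM. The log2 differences to replicate 1 were -0.69 for TFRC (-0.72 to -0.66), -0.65 for IREB2 (-0.70 to -0.60) and 0.27 for FTL (0.25 to 0.29). Within a library, the ratio of FTL to TFRC counts was 3.03 (2.97 to 3.09) in replicate 3, against 1.56 (1.54 to 1.59) and 1.49 (1.47 to 1.51) in replicates 1 and 2. NCOA4, the cargo receptor that carries ferritin to lysosomes, stood at 80.6 CPM in replicate 3 against 113 and 109 CPM. HSPA9, the mitochondrial chaperone of iron-sulfur cluster assembly, stood at 1082 ± 31.2 CPM (SD, n = 3), with log2 differences of -0.07 between replicate 3 and each other library.

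Among genes of lipid peroxidation, ALOX5 was higher and LPCAT3 lower in replicate 3. ALOX5, the lipoxygenase of leukotriene synthesis, had 380 counts in replicate 3 and 351 and 364 in replicates 1 and 2, which is 9.32 CPM against 6.71 and 6.62 CPM. ALOX15, which can oxidise lipids within membranes, stood at 3.41 CPM in replicate 3 against 4.07 and 4.29 CPM and did not differ between the libraries by the test (adjusted p = 0.200 and 0.0685, exact conditional binomial test). LPCAT3, which places polyunsaturated fatty acids into phospholipids, stood at 55.2 CPM in replicate 3 against 68.6 and 67.5 CPM. Its log2 difference was -0.31 to replicate 1 (-0.39 to -0.24).

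Over the whole list, replicate 3 was higher than replicate 1 in 11 of 36 genes and lower in 15, beside 30.9% higher and 39.7% lower among all 13719 genes. Against replicate 2 the counts were 10 higher and 15 lower, beside 30.9% and 40.3%. Those are 30.6% and 41.7%, and 27.8% and 41.7%, of the 36 genes, so the list as a whole was near the background of all genes. When the difference also had to reach 1.5-fold, SOD1 alone was higher in replicate 3, beside 5.5% of all genes against replicate 1 and 5.9% against replicate 2. TFRC, IREB2 and SRXN1 were lower by that much against both, beside 14.3% and 14.7% of all genes. Between replicates 2 and 1, GCLC, GSR, IREB2 and SOD1 were higher and FTL and PRDX1 lower in replicate 2, none by 1.5-fold, beside 5.97% and 4.77% of all genes. With halved counts, as if both mates of a read pair had been counted, none of these 6 calls was made, and with library totals 2 of the 36 genes were higher in replicate 2. Such tests compare libraries, not conditions, and cover counting error only. The median log2 difference of replicate 3 was -0.04 to replicate 1 and -0.07 to replicate 2 over the list, and -0.05 to each over all genes.

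**Figure D2:**
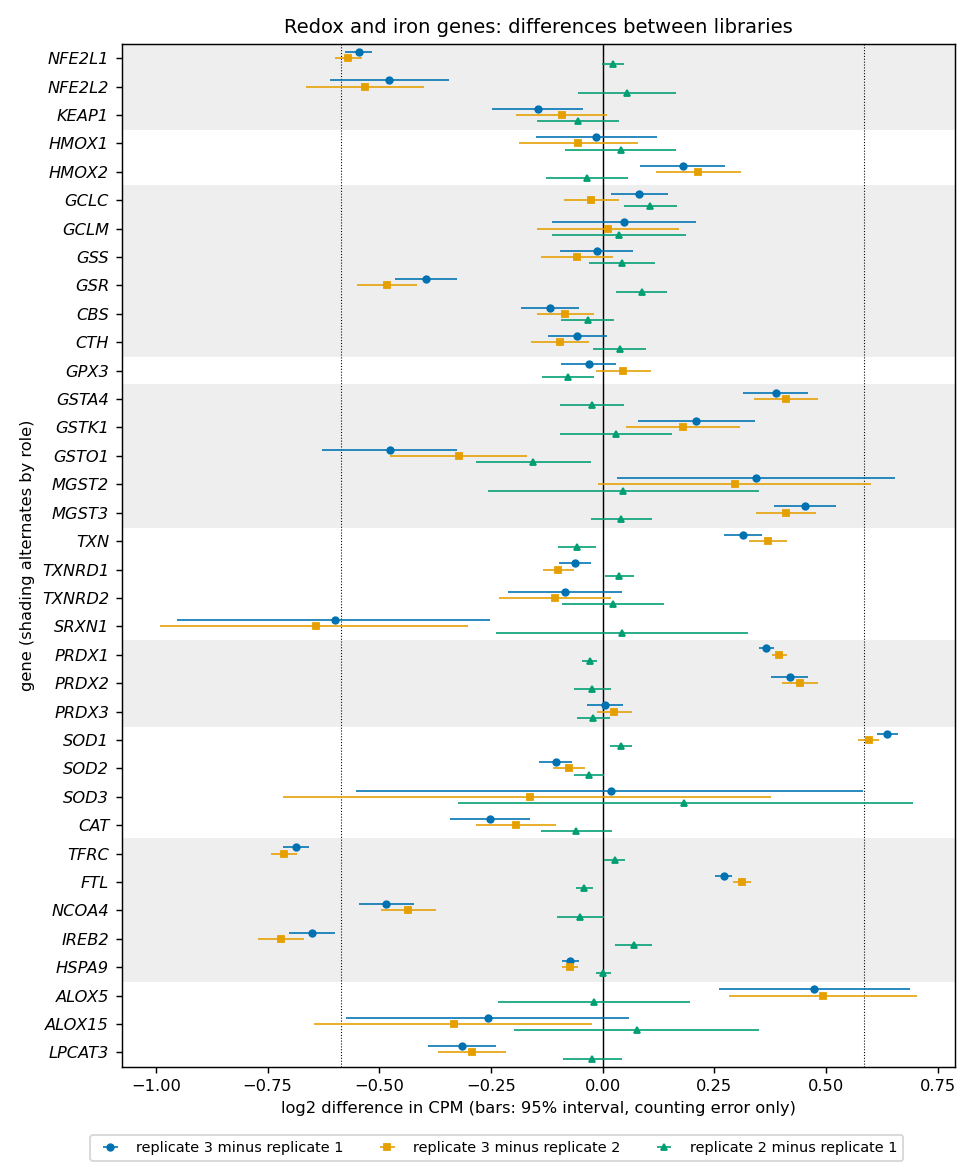
Log2 difference in CPM of each of the 36 genes between each pair of libraries, with 95% intervals for counting error and dotted lines at 1.5-fold. Replicates 2 and 1 differ little, while SOD1, PRDX2, MGST3 and ALOX5 lie to the right and TFRC, IREB2, SRXN1 and NFE2L1 to the left in both differences of replicate 3.

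The highest library exceeded the lowest by at least 1.5-fold in 4 of the 36 genes, TFRC, IREB2, SRXN1 and SOD1, beside 24.3% of all 13719 genes. Without replicate 3 the number was 0. At the other end, 12 of the 36 genes varied by less than 1.1-fold, beside 16.3% of all genes. These were HMOX1, GCLC, GCLM, GSS, CBS, CTH, GPX3, TXNRD1, TXNRD2, PRDX3, SOD2 and HSPA9. Of these, TXNRD2, PRDX3, SOD2 and HSPA9 encode mitochondrial proteins, and GCLC, GCLM, GSS, CBS and CTH enzymes of glutathione or cysteine synthesis. The SD over the libraries had a median of 11.7% of the mean over the list and 12.8% over all genes. These comparisons are not matched for level, and genes of lower counts vary more by counting error. The median log2 level was 6.26 over the 36 genes and 4.58 over the 13719 genes.

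**Figure D3:**
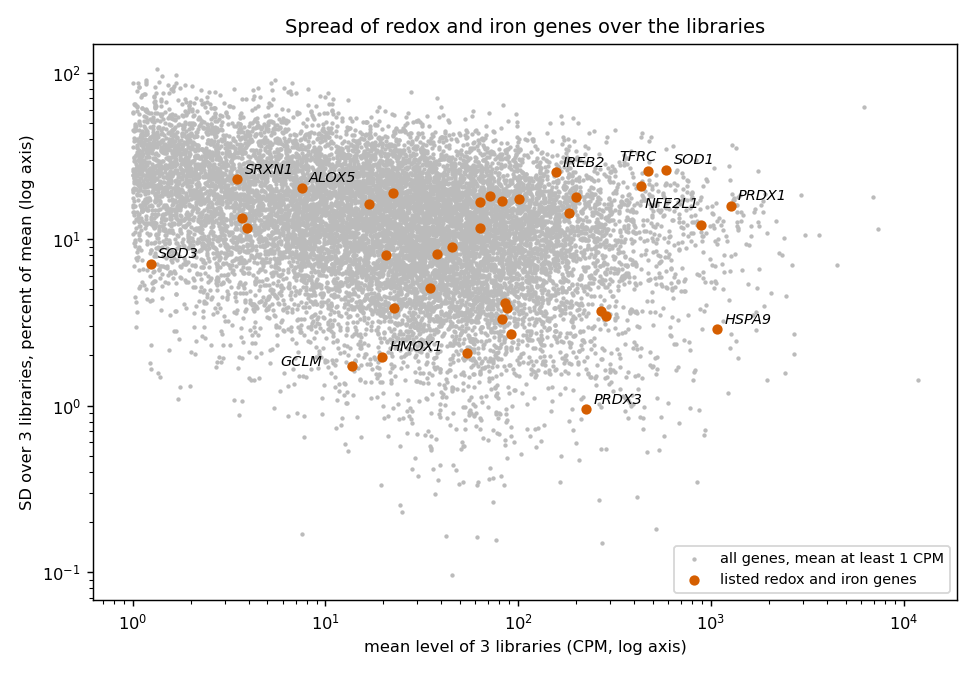
SD over the 3 libraries as a percentage of the mean (log axis) against mean CPM (log axis), for the 36 genes and in grey for all genes that averaged 1 CPM or more. The listed genes lie within the cloud of other genes, from PRDX3 at 0.948% to SOD1 at 26.2%.

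Further genes of the same pathways were taken from 9 lists of 135 genes, of which 97 had a matched ID. NOX3, a superoxide-producing oxidase, had no counts. Of the 96 others, 86 were above 1 CPM, 6 below and 4 not distinguished from it (edgeR quasi-likelihood), and their median log2 level was 4.89. Above 1 CPM were 56% of all genes tested and 78.3% of those with a symbol. The same shares are the background for the counts of each list below. Genes of a list of NRF2 regulators, relatives and related redox genes were all 8 above 1 CPM. They ran from BACH2 at 1.56 ± 0.584 CPM to TXNIP, a thioredoxin inhibitor, at 328 ± 16.2 CPM (SD, n = 3). The call for BACH2, a repressor related to BACH1, was lost without replicate 2 (edgeR adjusted p = 0.394) and with replicates 1 and 2 summed (0.0711). NFE2L3, a further relative of NRF2, stood at 107 CPM in replicate 3 against 74.1 and 74.2 CPM in replicates 1 and 2, opposite in direction to NFE2L1 and NFE2L2. BACH1, a repressor of HMOX1, stood at 49.1 CPM against 61.1 and 64.6 CPM.

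All 9 genes of NADPH supply, which feeds both the glutathione and the thioredoxin reductases, were above 1 CPM, from ME1 at 58.3 ± 4.31 CPM to the transketolase gene TKT at 826 ± 13.5 CPM (SD, n = 3). NNT, the mitochondrial transhydrogenase, was lower in replicate 3, at 108 CPM against 160.2 and 160.3 CPM. Of the cystine uptake and glutathione turnover genes, 9 of 10 were above 1 CPM and GGT5, with 5 counts in replicate 3 and 7 and 0 in replicates 1 and 2, was below. The 2 subunits of the cystine and glutamate exchanger behaved unequally. SLC7A11, its transport subunit, had 153 counts in replicate 3 against 400 and 404, which is 3.75 CPM against 7.65 and 7.35 CPM. SLC3A2, the heavy chain that other transporters share, was nearly level at 415 ± 12.4 CPM. The log2 difference of SLC7A11 to replicate 1 was -1.03 (-1.31 to -0.75).

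Glutaredoxin and methionine sulfoxide reductase genes were above 1 CPM in 8 of 9, with GLRX3 at 325 ± 31.1 CPM (SD, n = 3). GLRX5, a mitochondrial iron-sulfur gene, was below the level, with 3 counts in replicate 3 and 0 in both others. Whether its matched ID takes in all reads of the gene was not tested. Of the selenocysteine and selenoprotein genes, on whose products selenium-containing peroxidases and reductases depend or which are selenoproteins themselves, 11 of 12 were above the level, with SEPHS1 at 265 ± 18.1 CPM. DIO1, a deiodinase, was not distinguished at 0.980 ± 0.113 CPM. SELENOI, an enzyme of ethanolamine phospholipid synthesis, stood at 8.46 CPM in replicate 3 against 19.2 and 19.3 CPM.

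All 13 iron and haem genes were above 1 CPM, and 8 of them were lower in replicate 3 than in both others by the test and 2 higher, beside 36.5% lower and 27.3% higher among all genes. The list ran from SLC40A1 at 2.64 ± 1.61 CPM to PCBP2, an iron chaperone, at 615 ± 16.4 CPM (SD, n = 3). SLC40A1, which encodes the iron exporter ferroportin, had 32 counts in replicate 3 against 186 and 197, a log2 difference to replicate 1 of -2.18 (-2.77 to -1.63). STEAP3, an endosomal iron reductase, and FECH, the last enzyme of haem synthesis, were lower as well, at 2.28 CPM against 3.995 and 3.47 CPM and at 5.89 CPM against 9.10 and 8.91 CPM. ACO1, which encodes iron regulatory protein 1, varied less than IREB2, with 183 CPM in replicate 3 against 200.1 and 198 CPM. The ratio of IREB2 to ACO1 counts was 0.607 (0.585 to 0.630) in replicate 3 and 0.873 (0.849 to 0.898) and 0.928 (0.903 to 0.954) in replicates 1 and 2.

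Of the ferroptosis drivers, 12 of 13 genes were above 1 CPM, VDAC2 among them at 362 ± 40.7 CPM (SD, n = 3), and PTGS2, a marker of ferroptotic cells rather than a cause, was not distinguished at 0.931 ± 0.420 CPM. ACSL4, which activates arachidonic acid for membrane lipids, stood at 58.3 CPM in replicate 3 against 114 and 117 CPM. FAR1 and AGPS, of ether lipid synthesis, stood at 43.6 CPM against 85.3 and 84.2 CPM, and at 68.3 CPM against 100.1 and 106 CPM. Of the 12 drivers that averaged 1 CPM or more, 6 were lower and 1 higher in replicate 3 than in replicate 1 by the test, and 5 were lower and 2 higher than in replicate 2, beside 39.7% lower and 30.9% higher than in replicate 1 among all genes, and 40.3% and 30.9% against replicate 2. All 11 ferroptosis suppressors were above 1 CPM, from MBOAT1 at 5.64 ± 1.28 CPM to SC5D at 238 ± 5.24 CPM. ACSL3, which activates monounsaturated fatty acids and so protects membranes, was also lower in replicate 3, at 112 CPM against 174 and 177 CPM. DHODH, a mitochondrial enzyme that reduces ubiquinone, was higher, at 31.1 CPM against 26.7 and 24.8 CPM.

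The superoxide and NADPH oxidase genes had the smallest share of calls above 1 CPM of the 9 lists, with 5 of 11 measured genes. The phagocyte oxidase genes CYBB and NCF4 were below the level at 0.106 ± 0.0417 and 0.496 ± 0.0690 CPM, as was DUOX2 at 0.0621 ± 0.0224 CPM (SD, n = 3). NCF1 and DUOX1 were not distinguished, at 0.935 ± 0.316 and 0.690 ± 0.152 CPM. Leaving out replicate 2 ended the call for NCF4 (edgeR adjusted p = 0.0575), and leaving out replicate 3 put DUOX1 below the level (log2 level -0.51, edgeR adjusted p = 0.037). NOXA1 was the highest at 10.8 ± 2.37 CPM. Of the 5 oxidase genes that averaged 1 CPM or more, 4 were higher in replicate 3 than in both others by the test. Among all genes that share was 27.3%. NOX4, an oxidase that makes hydrogen peroxide, was the 1 lower, at 4.51 CPM in replicate 3 against 7.47 and 6.69 CPM.

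Over the 86 genes of these lists that averaged 1 CPM or more, 33 were lower in replicate 3 than in both others by the test and 24 higher. Of the 36 redox and iron genes, 14 were lower and 10 higher than in both, near the 36.5% lower and 27.3% higher among all genes.

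**Figure D4:**
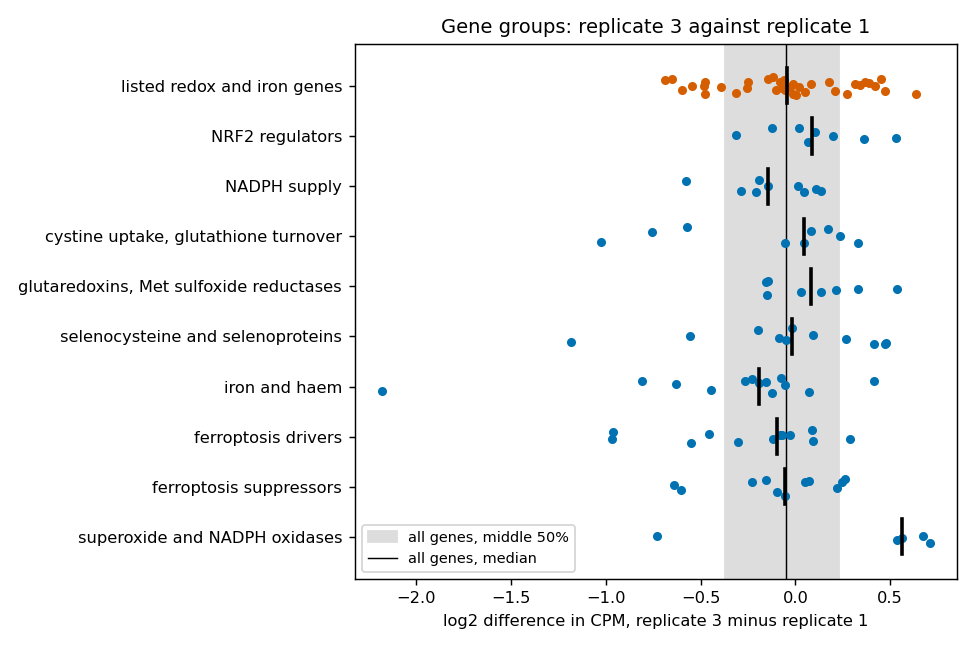
Log2 difference in CPM of replicate 3 minus replicate 1 for each gene that averaged 1 CPM or more, by list, with points spread vertically for visibility, a bar at each list's median, and a grey band for the middle 50% of all genes (-0.37 to 0.23). Medians run from -0.19 for iron and haem genes to 0.56 for the 5 oxidase genes, and the point at the far left is SLC40A1.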

How the data were processed

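RNA came from an RNeasy Mini Kit and was made into Illumina libraries, per the labels' protocols. The submitters' processing notes name Trim Galore 0.4.0, then STAR 2.5.3a, and for counting featureCounts 1.5.2. Build, annotation, strand setting and treatment of multiply mapped reads were not given in the sources used here, so levels of genes with close copies or pseudogenes (FTL, SOD1, TXN and HSPA9 among them, as known from human) or overlapping neighbours are uncertain. The authors deposited raw whole-number counts for each Ensembl gene, 1 file per library, with no scaling. Replicate numbers came from the titles.

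CPM were computed with TMM factors (edgeR 4.0.16, limma 3.58.1, R 4.3.3). All 23432 genes having a count were tested against 1 CPM, two-sided, by a quasi-likelihood F statistic taken from the deviances of glmQLFit in a model with only an intercept, with a Poisson lower bound on p. Benjamini-Hochberg adjusted values under 0.05 were called. The prior degrees of freedom were 4.68, and infinite in fits on 2 libraries, which ignore a gene's own spread. Differences between libraries used an exact conditional binomial test with doubled tail, adjusted over all genes of the pair. Exact 95% intervals cover counting error only, as reads carry no molecular identifiers. Both tests were checked on simulated counts. For the test of pairs these held counting error only, so that check does not cover other scatter between libraries. Alternatives included DESeq2 1.42.0. Plots used matplotlib 3.10.9 under Python 3.11.15.

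The listed genes and further lists were chosen with earlier results of these data known. Named genes are all listed genes and, of each further list, the highest, the lowest and those not called above 1 CPM, except for a few genes not reported here. Others of those lists, and the count ratios, were picked after their values were seen. Planned levels per length, promoter motifs and protein comparisons were not run, as no such tables were at hand.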

Additional observations from a re-analysis of the deposited data

How the results depend on the processing

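The levels of the 36 genes against 1 CPM had the same direction and side of the threshold in all 288 values from 8 alternatives (other scaling factors, library totals, DESeq2, a count filter, each replicate left out, and replicates 1 and 2 summed), as did 261 of 278 values of the 36 other named genes. With the filter on low counts, genes below 1 CPM numbered 1242 over all genes and 2 in the further lists, since low genes are not tested there. Without 1 replicate, the level of DIO1 ran from -0.125 to 0.032 on the log2 scale, that of FOXA2 from -1.37 to 0.265, that of NCF1 from -0.37 to 0.129 and that of PTGS2 from -0.437 to 0.203. With replicates 1 and 2 summed, a choice made after seeing the data, NCF1 stood at 0.001. CDX2, not distinguished from 1 CPM with 3 libraries, was below it in each fit on 2. With at least 1.5-fold required, the genes in which replicate 3 was higher numbered 1 against each other replicate and those lower 3, while 0 were higher or lower in replicate 2 than in replicate 1. With halved counts, as if both mates of a pair had been counted, 0 were higher and 0 lower in replicate 2 than in replicate 1, and with library totals 2 were higher. The number of genes whose highest library exceeds the lowest by 1.5-fold was 0 at 2-fold and ran from 0 without replicate 3 to 4 without either other. No paired analysis was possible because the libraries form a single group. At these depths the intervals of genes under about 500 counts, such as SOD3, SRXN1, MGST2 and ALOX15, are wide.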
